A study of Mus musculus with 4 samples.

Results

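Mesenchyme-Ptges is 1 of 4 mesenchymal classes that the authors assigned to cells of mouse colonic organoid cultures. Its members were taken as all cells that carry this class in the deposited cell table. There were 497 of them among 6155 cells, and 1948 of those 6155 were mesenchymal. The remaining mesenchyme comprised 893 cells named after Ifitm1, 445 cells called generic and 113 cells called proliferative, and is referred to as other mesenchyme.

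The cultures were grown from the distal colon of mice, either wildtype or Tnfr2-/-, a line without TNF receptor 2, the product of Tnfrsf1b. TNF (tumor necrosis factor) at 20 ng/ml was added to 1 culture of each genotype from day 1 to day 6 after passage 5, and a Vehicle culture of each genotype is called untreated here. Cells from all 4 cultures were collected on day 7, freed of apoptotic cells with annexin V and made into 3′ single-cell libraries. Each combination of genotype and treatment was 1 culture and 1 library, so there was no replicate check, no test between groups was possible and every comparison is between single cultures. The Tnfr2-/- label gives no Cre, promoter or deleted exon. The labels give the mice as 16 weeks old, whereas the study's methods give a younger age and mice of both sexes.

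Fibroblasts of the gut wall build the collagen matrix and supply the epithelium with growth factors and with antagonists of bone morphogenetic proteins. TNF acts through receptor 1, which nearly all cells carry, and receptor 2, whose expression is more restricted, and both can lead to NF-κB activity. Fibroblasts in inflamed tissue are known for secreting chemokines, interleukins, matrix metalloproteinases and prostaglandin E2, which is made from arachidonic acid by the cyclooxygenases and then by a prostaglandin E synthase such as Ptges.

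The class held 34 cells of untreated wildtype, 304 of TNF-treated wildtype, 37 of untreated Tnfr2-/- and 122 of TNF-treated Tnfr2-/-. Sets of 4 values are given in that order throughout. These cells carried 342542, 14615310, 832661 and 4771439 unique molecular identifiers (UMIs, each standing for 1 captured RNA molecule), with medians of 5755, 48633, 21965 and 37644.5 UMIs per cell. UMIs were summed over the class in each library and expressed as CPM, counts scaled to a total of 1000000 for the same cells, with exact Poisson intervals at 95% that cover counting error only. A difference is the log2 of (CPM + 1) in 1 sum minus that in another, which understates changes of low genes. A gene passed where the difference was at least 2-fold and 1 of the sums reached 20 CPM, and "rose", "fell", "higher" and "lower" over gene counts mean that this limit was passed. A sum of 0 UMIs allows up to 8.76, 0.205, 3.6 and 0.629 CPM, so a difference from a sum of 0 can also be overstated.

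The untreated wildtype members stood apart from those of the other libraries. Their median mitochondrial share was 16.7% of UMIs against 2.79%, 2.93% and 4.15%, and 27 of the 34 cells were above 10%, whereas 21 of 1396 other mesenchymal cells of the same culture were. Only 8 of the 34 reached 10000 UMIs, against 285 of 304, 31 of 37 and 115 of 122. Counts that rest on these 34 cells are in most cases also given over the 7 cells at or below 10% mitochondrial UMIs. Epithelial RNA also moved with a group. The summed level of 12 epithelial genes in the class was 111, 229, 72.1 and 940 CPM, and it was 77.2, 105, 62.7 and 107 CPM without the 4, 35, 2 and 20 cells that held more than 500 CPM of these genes. Doublet scoring marked 1 cell of the class. The libraries shared 3 cell barcodes, none of them in the class.

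**Figure D1:**
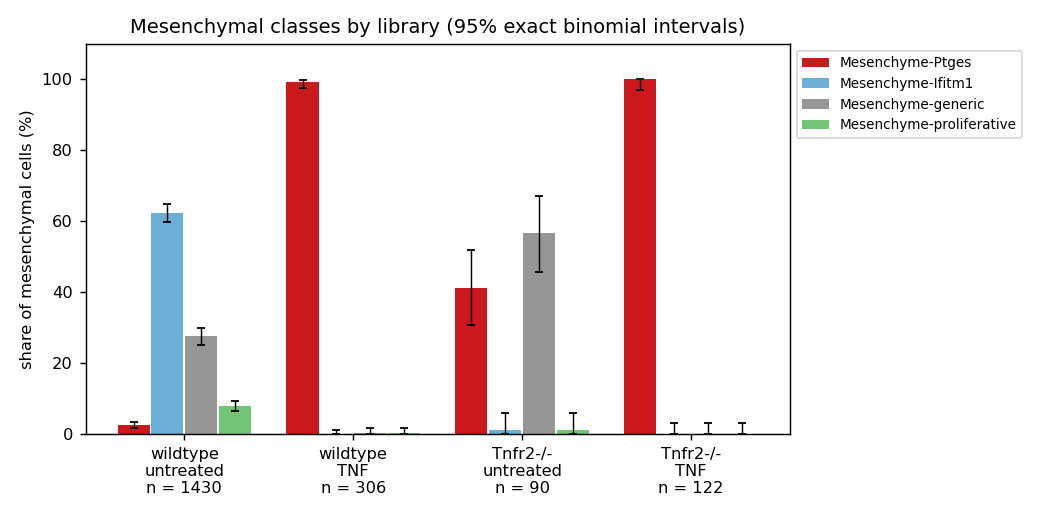
Share of the mesenchymal cells of each library (in percent, n below each library) in the 4 mesenchymal classes; bars are shares and whiskers exact binomial intervals over the cells of 1 culture. Mesenchyme-Ptges held 2.38% of 1430 cells in untreated wildtype, 41.1% of 90 in untreated Tnfr2-/- and 99.3% of 306 and 100% of 122 in the TNF cultures.

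TNF-treated cultures held almost no other mesenchyme, so the class could be set against other mesenchyme in the untreated cultures alone. It made up 2.38% (exact Clopper-Pearson interval 1.65 to 3.31) of the mesenchyme in untreated wildtype and 41.1% (30.8 to 52.0) in untreated Tnfr2-/-. These intervals cover the sampling of cells within 1 culture and do not compare the genotypes. With TNF the shares were 99.3% (97.7 to 99.9) in wildtype and 100% (97.0 to 100) in Tnfr2-/-. The bar plot of the 4 classes shows that the remainder was mostly the class named after Ifitm1 in untreated wildtype and mostly generic mesenchyme in untreated Tnfr2-/-. Restricting to cells at or below 10% mitochondrial UMIs lowered the untreated wildtype share to 0.507%. The untreated cultures held 1430 mesenchymal cells in wildtype and 90 in Tnfr2-/-. As a share of all cells of each culture, the class made up 1.31%, 20.7%, 3.31% and 12.4%.

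The 7 genes taken as markers of the class are Ptges, the matrix metalloproteinases Mmp13, Mmp3 and Mmp10, which degrade collagen and other matrix proteins, the monocyte chemoattractant Ccl2, the bone morphogenetic protein antagonist Grem1 and Il1rl1, the receptor for interleukin 33. The 3 metalloproteinase genes lie near each other on chromosome 9 (GRCm38, plus strand, GENCODE M21), Mmp13 from 7272514 to 7283331, Mmp3 from 7445822 to 7455975 and Mmp10 from 7502352 to 7510240. Their promoters are shown because these genes belong to 1 cluster and were among the markers that differed between libraries. Each line gives the 250 bases before the RefSeq start (GRCm38.p6), 5′ to 3′ on the gene's strand, with the match to the AP-1 letters TGANTCA in capitals. The match began 46 bases before the start of Mmp3 (chr9:7445572-7445821, plus strand), 63 before that of Mmp10 (chr9:7502092-7502341, plus strand) and 35 before that of Mmp13 (chr9:7272264-7272513, plus strand).
Mmp3: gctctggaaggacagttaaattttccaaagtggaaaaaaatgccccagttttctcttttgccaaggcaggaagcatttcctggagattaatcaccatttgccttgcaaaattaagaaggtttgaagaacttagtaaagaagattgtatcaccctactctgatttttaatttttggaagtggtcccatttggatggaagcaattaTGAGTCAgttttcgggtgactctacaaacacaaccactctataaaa
Mmp10: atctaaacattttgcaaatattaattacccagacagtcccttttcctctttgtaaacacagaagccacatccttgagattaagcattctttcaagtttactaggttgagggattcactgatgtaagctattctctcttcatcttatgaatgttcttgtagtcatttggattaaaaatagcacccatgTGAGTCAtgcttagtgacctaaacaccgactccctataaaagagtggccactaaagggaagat
Mmp13: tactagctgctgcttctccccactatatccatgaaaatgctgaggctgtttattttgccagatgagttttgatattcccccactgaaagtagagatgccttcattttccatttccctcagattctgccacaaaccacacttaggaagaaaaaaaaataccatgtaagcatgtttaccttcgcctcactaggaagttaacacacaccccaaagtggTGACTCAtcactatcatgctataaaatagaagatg
Of the 6 class markers with an entry, these 3 held the AP-1 letters on either strand (50%), against 7.82% of 27025 genes, and the same 3 held TATAAA, against 14.3% of genes. The windows of Ptges, Grem1 and Il1rl1 did not hold the AP-1 letters. The 3 genes that held them are neighbours in 1 cluster and not independent members, and the shares were not tested against each other. A match describes the letters of the window and was not tested as a binding site.

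**Figure D2:**
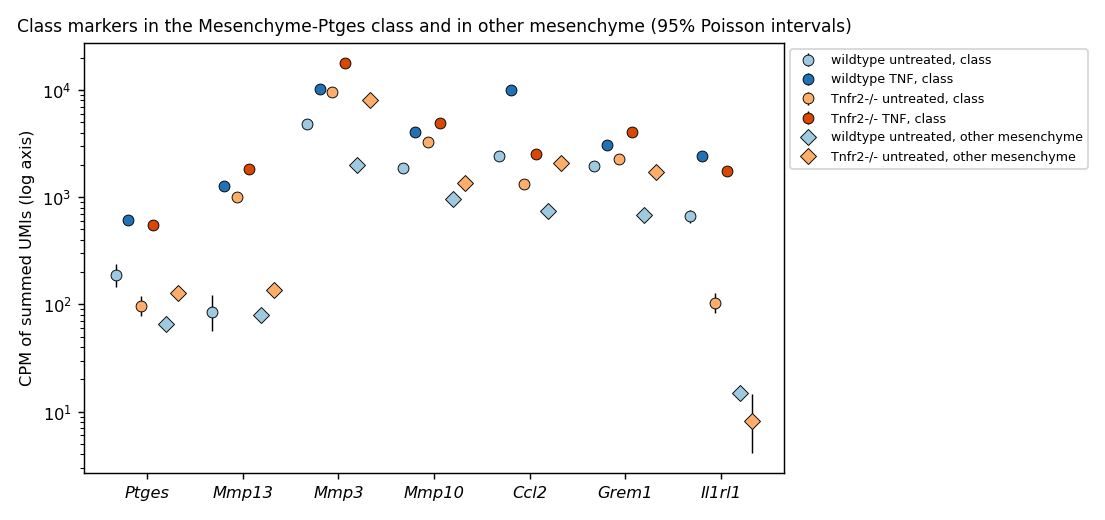
CPM of the 7 class markers on a log axis, with circles for the Mesenchyme-Ptges class in each of the 4 libraries, diamonds for other mesenchyme of the untreated libraries and lines for 95% Poisson intervals. Il1rl1 was at 663, 2400, 103 and 1738 CPM in the class and at 14.9 and 8.18 CPM in other mesenchyme.

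Il1rl1 (chromosome 1, 40429570 to 40465415, plus strand) had a higher summed level in the class than in other mesenchyme in both untreated cultures. It was at 663 CPM (95% interval 579 to 755), 2400.3 CPM (95% interval 2375 to 2426), 103 CPM (95% interval 82.6 to 128) and 1738 CPM (95% interval 1700.4 to 1775) in the class. Other mesenchyme held 14.9 and 8.18 CPM in untreated wildtype and untreated Tnfr2-/-, which put the class higher by 5.39 and 3.51 on the log2 scale. The untreated values came from few cells. After thinning every cell to 3000 UMIs, 4 of 32 (12.5%), 262 of 300 (87.3%), 4 of 35 (11.4%) and 89 of 121 (73.6%) class cells held an Il1rl1 UMI, with 14.7%, 96.1%, 32.4% and 90.2% before thinning. Epithelial cells had medians of 37245.5, 30306, 41057 and 37368.5 UMIs. After thinning, an Il1rl1 UMI was in 0 of 1106 of them (up to 0.271% allowed), 1.96%, 0 of 1006 (up to 0.298%) and 0.233%. Before thinning these shares were 0.0887%, 17.2%, 0% and 3.15%. Thinning left out 22, 246, 17 and 1 of these epithelial cells, and 224 of the 246 belonged to the class Secretory-Reg4-Ang4, whose median was 1957.5 UMIs. Other mesenchyme held an Il1rl1 UMI after thinning in 34 of 1394 cells (2.44%) of untreated wildtype and 1 of 53 (1.89%) of untreated Tnfr2-/-. Before thinning these shares were 8.24% and 11.3%. In untreated Tnfr2-/- the exact intervals of the thinned shares overlapped, at 3.20 to 26.7% in the class and 0.0478 to 10.1% in other mesenchyme. The receptor therefore marked most class cells of the TNF cultures and a minority of those in the untreated cultures.

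The other 6 markers were not higher in the class in every comparison. Ptges was at 187, 608, 97.3 and 550.4 CPM in the class and at 65.3 and 129 CPM in other mesenchyme of untreated wildtype and Tnfr2-/-, so in untreated Tnfr2-/- the gene that names the class was not above other mesenchyme (log2 difference -0.40). Ccl2 was at 2446, 9927, 1331 and 2555 CPM against 744 and 2089.5 CPM, also below other mesenchyme in untreated Tnfr2-/- (-0.65). Mmp13 was at 84.7, 1262, 1009 and 1818 CPM against 79.7 and 138 CPM, with near-equal levels in untreated wildtype (0.09) and a higher level in the class in untreated Tnfr2-/- (2.87). Mmp10, at 1874, 4091, 3262 and 4956 CPM against 954 and 1362 CPM, was above other mesenchyme by 0.97 and 1.26. Mmp3 was at 4869.5, 10266, 9546 and 18027 CPM against 1989.6 and 8056 CPM, and Grem1 at 1936, 3050.0, 2266 and 4030.0 CPM against 682 and 1735 CPM. In untreated wildtype 5 of the 7 passed (Ptges, Mmp3, Ccl2, Grem1 and Il1rl1), in untreated Tnfr2-/- 3 passed (Mmp13, Mmp10 and Il1rl1), and Il1rl1 passed in both. Over the 7 low-mitochondrial cells of untreated wildtype 6 of the 7 passed. The summed level of all 7 was 12060, 31604, 17615 and 33673 CPM in the class, 4530 and 13517 CPM in other mesenchyme and 5.6, 76, 43.7 and 64.8 CPM in epithelium.

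Fibroblast genes were high in the class in every library. The summed level of 14 fibroblast identity genes was 25410, 12686, 16221 and 11389 CPM, against 22376 and 21235 CPM in other mesenchyme and 23.1 to 188 CPM in epithelium. The intermediate filament gene Vim was at 2283, 3843, 3017 and 4140.5 CPM and the proteoglycan gene Dcn at 2683, 3305, 2855 and 2806 CPM. Pdgfra, a growth factor receptor of gut fibroblasts, was at 295, 153, 48 and 88.2 CPM against 185 and 212 CPM in other mesenchyme. Endothelial genes summed to 2.92, 3.01, 2.40 and 4.40 CPM, with 6, 2, 5 and 4 of 7 at 0. Immune genes summed to 8.76, 2.53, 2.40 and 21.4 CPM, with 8, 6, 8 and 7 of 10 at 0, and glial and neuronal genes to 5.84, 1.37, 0 and 1.89 CPM. Smooth muscle and myofibroblast genes were low and uneven, with Acta2 at 5.84, 46.1, 74.5 and 13.4 CPM and Tagln at 2.92, 40.4, 24 and 0.419 CPM. The levels thus carried fibroblast genes and near-zero levels of endothelial, immune and glial genes.

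Set against other mesenchyme of the same culture, the class was described and not tested, since the classes came from clustering these cells. Of 6030 genes at or above the level limit in both untreated cultures, 32 were higher in the class in both (0.531%) and 58 were lower in both (0.962%), together 1.49%. The cultures taken singly gave more, with 327 higher (5.01%) and 558 lower (8.56%) of 6521 genes in Tnfr2-/- (together 13.6%) and 479 higher (7.02%) and 690 lower (10.1%) of 6824 genes in wildtype (17.1%). Sets of these sizes would share some genes even if unrelated, and no shared count in the text was tested against that. Over the 7 untreated wildtype cells with a low mitochondrial share, the shared counts were 62 and 114.

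Il1rl1 led the 10 largest shared rises, which also held a matricellular protein, an AP-1 subunit and a galectin. Nov (Ccn3), a matricellular protein, was at 40.9, 29.4, 339 and 195 CPM against 6.65 and 38.7 CPM, and Rgcc, a regulator of the cell cycle, at 26.3, 20.8, 30 and 39 CPM against 3.22 and 2.98 CPM. Both were higher in the class in the 2 untreated cultures, Nov by 2.45 and 3.10 and Rgcc by 2.69 and 2.96, although Rgcc lay near the level limit. Fosl1, an AP-1 subunit, was at 46.7, 85.1, 44.4 and 127 CPM against 9.17 and 12.6 CPM. Lgals3, which encodes galectin 3, was at 593, 443, 1985 and 2935 CPM against 189.7 and 434 CPM. Ankrd37, Lrp8, Samd12, Alcam and Gdap10 completed the largest rises with log2 differences of 3.09, 1.62, 2.19, 1.51 and 1.62 in untreated Tnfr2-/-. Below these 10, Il13ra2, the decoy receptor for interleukin 13, was at 67.1, 109.8, 62.5 and 186 CPM against 2.99 and 28.3 CPM, with log2 differences of 4.09 and 1.12, and Ptgs2, the inducible cyclooxygenase that acts before Ptges, at 458, 1045, 821 and 1767 CPM against 184 and 367 CPM (1.31 and 1.16). Igfbp5, a binding protein of insulin-like growth factors, also passed in both untreated cultures, at 1223 and 115 CPM in the class against 522 and 14.1 CPM. Over the 7 low-mitochondrial wildtype cells, which held 2 UMIs of Igfbp5, the wildtype difference turned from 1.23 to -5.24.

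Interferon targets were lower in the class in untreated Tnfr2-/-, and 4 of them (Isg15, Ifit2, Psmb9 and Ifitm1) in both untreated cultures. Isg15, a ubiquitin-like protein induced by interferon, was at 87.6, 301, 173 and 149 CPM in the class and 348 and 760.2 CPM in other mesenchyme of the untreated cultures (log2 differences -1.98 and -2.13). Ifitm1, a restriction factor of virus entry that names another mesenchymal class, was at 219, 251, 56.4 and 93.5 CPM against 921 and 670.2 CPM. Ifit2 had no UMI in the untreated wildtype class, which put it at least 2.55-fold lower than in other mesenchyme there. In untreated Tnfr2-/-, 22 of 29 tested interferon targets (30 listed) were lower and 0 higher, with a median difference of -2.01 against -0.09 over all genes. In untreated wildtype 5 of 25 were lower and 0 higher (median -0.52, all genes -0.12), and 9 of 25 over the 7 low-mitochondrial cells (-0.59). The summed level was 10034 against 13537 CPM in untreated wildtype and 12888 against 20727 CPM in untreated Tnfr2-/-. The other large shared falls were Serpina3g, Sp100, Ifi27l2a, Epcam, G0s2, Id3 and Dbp. Of these, Serpina3g, a serine protease inhibitor, was at 2.92, 14.2, 4.8 and 4.19 CPM against 96.1 and 72.9 CPM, and Id3, a target of bone morphogenetic protein signals, at 114, 88.7, 44.4 and 14.9 CPM against 401 and 257 CPM.
The promoter of Isg15 (chr4:156200819-156201068, minus strand) is shown because this target was lower in the class in both untreated cultures. The line gives the 250 bases before the RefSeq start (GRCm38.p6), 5′ to 3′ on the gene's strand, with 3 overlapping matches to GAAA, any 2 bases and GAAA in capitals.
Isg15: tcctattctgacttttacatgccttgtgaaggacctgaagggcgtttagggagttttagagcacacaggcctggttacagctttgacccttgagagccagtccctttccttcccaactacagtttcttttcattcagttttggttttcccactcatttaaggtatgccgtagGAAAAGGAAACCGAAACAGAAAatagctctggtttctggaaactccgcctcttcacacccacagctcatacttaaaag
These letters, searched on both strands, were in 11 of 25 matched interferon targets (44.0%) and in 3.46% of genes. Of the targets lower in both untreated cultures (Isg15, Ifit2, Psmb9 and Ifitm1), only Isg15 was among those 11. The windows searched for Ifit2 did not hold the letters.

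Genes of glycolysis and hypoxia were higher in the class than in other mesenchyme of untreated Tnfr2-/- and not of untreated wildtype. In Tnfr2-/- 18 of 18 tested genes (20 listed) were higher, with a median of 2.32. In wildtype 2 of 17 were higher (Ndrg1 and Ankrd37) and Egln3 was lower, with a median of 0.08. The difference between the cultures was not tested. Pgk1, the phosphoglycerate kinase, was at 257, 478, 1319.9 and 1631 CPM in the class and at 182 and 169.6 CPM in other mesenchyme. Ndrg1, a stress-induced gene, was at 67.1, 159.6, 472 and 728 CPM against 29.7 and 32 CPM, and Bnip3, a mitophagy receptor induced by hypoxia, at 32.1, 88.3, 426 and 576 CPM against 33.5 and 47.6 CPM. The untreated Tnfr2-/- class thus held about the levels of the TNF-treated Tnfr2-/- class, and other mesenchyme of the same culture held far less. Over the 7 low-mitochondrial cells of untreated wildtype, 5 of 18 genes were higher and 2 lower (median 0.86).
Promoters of Pgk1 (chrX:106186850-106187099, plus strand) and Ankrd37 (chr8:45999851-46000100, minus strand) are shown for this list, in the same window, build and direction, with matches to the hypoxia response core (ACGTG or GCGTG, both strands) in capitals.
Pgk1: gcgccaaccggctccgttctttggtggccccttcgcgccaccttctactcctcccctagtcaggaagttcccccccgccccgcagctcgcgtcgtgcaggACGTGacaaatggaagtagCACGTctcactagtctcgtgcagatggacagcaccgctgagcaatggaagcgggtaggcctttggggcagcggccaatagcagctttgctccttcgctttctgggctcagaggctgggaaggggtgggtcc
Ankrd37: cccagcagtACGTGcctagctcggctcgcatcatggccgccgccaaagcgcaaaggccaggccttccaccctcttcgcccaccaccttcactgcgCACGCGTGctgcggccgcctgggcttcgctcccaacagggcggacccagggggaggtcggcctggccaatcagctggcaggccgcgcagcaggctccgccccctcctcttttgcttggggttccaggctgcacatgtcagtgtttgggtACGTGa
The core was in 17 of 19 matched genes of the list (89.5%) and in 41.5% of all genes, and Ankrd37, which passed in both untreated cultures, held 4 matches, 2 of them overlapping.

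Collagen genes passed in both untreated cultures. In Tnfr2-/- 6 of 18 (19 listed) were lower in the class and Col8a1 was higher, with a median of -0.70. Over all genes of that culture 8.56% were lower and 5.01% higher, with a median of -0.09. The summed collagen level there was 12584 CPM in the class and 20582 CPM in other mesenchyme, against 27182 and 20654 CPM in untreated wildtype. In wildtype 3 were higher (Col5a3, Col7a1 and Col27a1) and 0 lower, with a median of 0.58. Over the 7 low-mitochondrial cells 1 was higher and 2 lower and the median was -0.23, so the wildtype direction depended on the cells used. Col3a1, a fibrillar collagen, was at 5906, 957, 1065 and 442 CPM against 4069 and 3243 CPM in other mesenchyme.

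Tnfr2-/- against wildtype among the TNF-treated members rested on 304 and 122 cells and not on the untreated class. Of 6480 genes, 397 were higher in Tnfr2-/- (6.13%) and 552 lower (8.52%), together 14.6%. Tnfr2-/- cells held more of the transcripts of glycolysis and hypoxia, of Ccl5, Mmp12, Lcn2 and Sfrp2, and less of Ccl2, Ccl7, Cxcl10, Il6, Timp1, Tnc and of proliferation genes. The split depended on scaling. It was 495 higher and 414 lower with TMM factors (54.5% higher against 41.8%) and 497 and 406 with median-of-ratios factors (55.0%). The median over all genes was -0.20, and -0.07 and -0.06 with those factors. Genotype cannot be told apart from culture, mouse or sex, as Xist was at 1679, 549, 0 and 0 CPM and the Y-linked gene Ddx3y at 0, 0.205, 64.9 and 70 CPM in the class, with the Y-linked Eif2s3y at 0, 0.205, 33.6 and 33.1 CPM. Tnfrsf1b itself was at 17.5, 19.2, 16.8 and 13.4 CPM, and as the deleted part of the gene was not given, a 3′ tag checks nothing. The study reports from qPCR of a further colonoid cohort that knockout cultures lacked Tnfr2. Tnfrsf1a, receptor 1, was at 163, 82.2, 102 and 64.3 CPM.

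**Figure D3:**
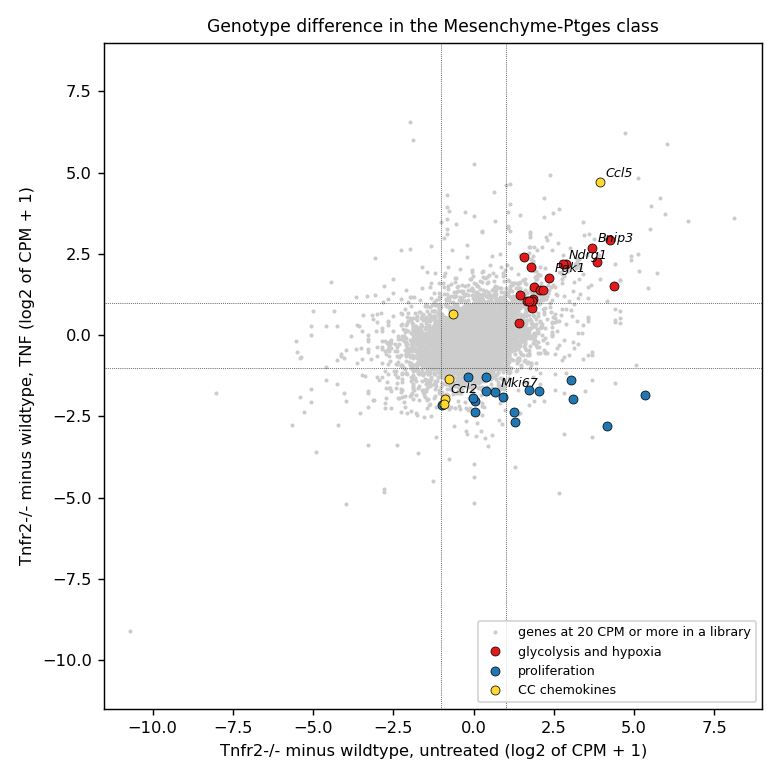
Each point is a gene, placed by Tnfr2-/- minus wildtype in the Mesenchyme-Ptges class without TNF (x axis) and with TNF (y axis), both as log2 of (CPM + 1), with dotted lines at 2-fold. Glycolysis and hypoxia genes (red) lie at the upper right, proliferation genes (blue) lie below the lower line and Ccl5 (yellow) lies apart from Ccl2 and other chemokines of its family.

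The monocyte chemoattractants Ccl2 and Ccl7 were lower in TNF-treated Tnfr2-/- and Ccl5 was higher. Ccl2 was at 2446, 9927, 1331 and 2555 CPM, so the TNF-treated wildtype class held the highest level, and the log2 difference between the genotypes with TNF was -1.96. Among cells with at least 10000 UMIs the median Ccl2 level was 9107 CPM in TNF-treated wildtype (10th to 90th percentile 3992 to 15559) and 667 CPM in TNF-treated Tnfr2-/- (0 to 7374). After thinning, 297 of 300 wildtype cells (99.0%) and 73 of 121 Tnfr2-/- cells (60.3%) held a Ccl2 UMI (100% and 84.4% before), while epithelium of the same libraries held one in 6.54% and 3.15% (40.6% and 13.8% before). Ccl7, another monocyte chemoattractant, was at 464, 1239, 246 and 285 CPM (-2.12), whereas Ccl8, also a monocyte chemoattractant, did not pass (297 CPM in wildtype and 464 CPM in Tnfr2-/- with TNF). Cxcl10, an interferon-inducible chemokine, was at 46.7, 366, 39.6 and 46.9 CPM (-2.94). In the other direction Ccl5, which attracts T cells, was at 0, 17.3, 14.4 and 477 CPM, higher by 4.71, and the neutrophil chemokine Cxcl5 was at 423, 173, 1146 and 952 CPM (2.45). Ccl5 was uneven among cells, with 15 of 121 Tnfr2-/- cells (12.4%) and 6 of 300 wildtype cells (2.00%) holding it after thinning (23.0% and 4.61% before) and 1.20% of epithelial cells in wildtype and 0.817% in Tnfr2-/- (4.90% in both before). Of 4 tested CC chemokines (15 listed), 1 was higher and 2 lower, and of 5 CXC chemokines (15 listed), 1 was higher and 1 lower.

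Interleukins and colony-stimulating factors followed the lower pattern. Of 7 tested (20 listed), 4 were lower in Tnfr2-/- (Il6, Lif, Csf1 and Tnfsf9) and 0 higher, with a median of -1.02. Il6 was at 0, 45.4, 0 and 1.26 CPM, and after thinning 21 of 300 wildtype cells (7.00%) and 0 of 121 Tnfr2-/- cells held it (36.2% and 1.64% before), and 0 of 917 and 0 of 857 epithelial cells did (0.258% and 0% before). A count of 0 allows a share of up to 2.48% of the Tnfr2-/- class and 0.327% and 0.350% of epithelium. Lif, of the same cytokine family, was at 35, 86.4, 26.4 and 31.4 CPM, and Csf1, the macrophage growth factor, at 123, 632, 132 and 311 CPM. Each of these was highest in the TNF-treated wildtype class. Il11 and Csf3 did not pass between the genotypes, at 352 CPM in wildtype and 259.7 CPM in Tnfr2-/- and 117 CPM in wildtype and 168 CPM in Tnfr2-/- with TNF. Of 24 tested cytokine receptors (28 listed), 3 were higher and 3 lower. The interleukin 1 antagonist Il1rn was higher, at 0, 4.79, 2.4 and 50.7 CPM and the decoy receptor Tnfrsf11b (osteoprotegerin) was at 11.7, 14.4, 61.2 and 116 CPM, while Osmr, Il13ra1 and Tnfrsf12a were lower, with log2 differences of -1.17, -1.09 and -1.29.

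The prostaglandin and NF-κB lists held no gene that passed between the genotypes with TNF. Of 8 tested prostaglandin genes (19 listed) 0 passed, with Ptges at 608 CPM in wildtype and 550.4 CPM in Tnfr2-/-, Ptgs2 at 1045 CPM in wildtype and 1767 CPM in Tnfr2-/- and the prostaglandin transporter Slco2a1 at 46.7 CPM in wildtype and 37.5 CPM in Tnfr2-/-. Of 17 tested NF-κB subunits and feedback genes (21 listed) 0 passed and the median was 0.00. Nfkbia, the inhibitor that NF-κB induces, was at 213, 749.6, 610.1 and 750.3 CPM, and Tnfaip3 (A20), at 108, 174, 81.7 and 90.1 CPM, came just under the limit at -0.94. Without replicates these sizes do not show that the genotypes were alike.

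Matrix enzymes moved one by one. Of 15 tested metalloproteinases and inhibitors (18 listed), Mmp8, Mmp12 and Adamts5 were higher and Timp1 lower. Mmp12, the macrophage elastase, was at 0, 16.3, 102 and 196 CPM and Mmp8, a collagenase, at 11.7, 14.2, 55.2 and 31.2 CPM. Timp1, an inhibitor of metalloproteinases, was at 1171, 987, 137 and 249 CPM, with log2 genotype differences of -1.99 with TNF and -3.09 without. The class markers Mmp3, Mmp13 and Mmp10 did not pass, at 0.81, 0.53 and 0.28. Per cell, Mmp3 had a median of 8670 CPM in wildtype (718 to 20959) and 17831 CPM in Tnfr2-/- (7059 to 33331), so the ranges overlapped. Of 19 tested matrix glycoproteins (26 listed), Lox was higher and Tnc, Spp1, Thbs1, Lum and Has2 were lower. Tnc, an adhesion-modulating glycoprotein, was at 1238, 1203, 426 and 208 CPM. Of 17 collagens 2 were lower, Col3a1 (-1.11) and Col27a1 (-1.37), with a list median of 0.16.

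Glycolysis and hypoxia genes were mostly on the higher side, as were the tested epithelial genes described further below. Of 19 tested (20 listed), 17 were higher in TNF-treated Tnfr2-/- and 0 lower, with a median of 1.49 against -0.20 over all genes, with 17 of 19 under TMM factors (1.61) and 16 of 19 without the cells holding epithelial RNA (1.46). Pgk1 was at 478 CPM in wildtype and 1631 CPM in Tnfr2-/-, and its per-cell median was 362 CPM in wildtype (137 to 939) against 1631 CPM in Tnfr2-/- (749 to 2574). The glucose transporter Slc2a1 was at 17.5, 50.4, 135 and 231 CPM and the lactate dehydrogenase Ldha at 356, 637, 1190.2 and 1331 CPM. Egln3, an oxygen-sensing prolyl hydroxylase, was at 14.6, 131, 325 and 380.0 CPM, while Vegfa, the angiogenic factor, did not pass at 123, 199, 329 and 258 CPM. Without TNF, 18 of 18 tested genes were higher in Tnfr2-/- (median 1.86, all genes -0.03), and 13 of 18 over low-mitochondrial cells (1.29). The summed level in the class was 3468, 6383, 13845 and 16202 CPM. In epithelium of the same libraries it was 8748, 10534, 7844 and 20001 CPM, so with TNF it was also higher in Tnfr2-/- epithelium, and other mesenchyme held 3573 and 3273 CPM in the untreated cultures.

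**Figure D4:**
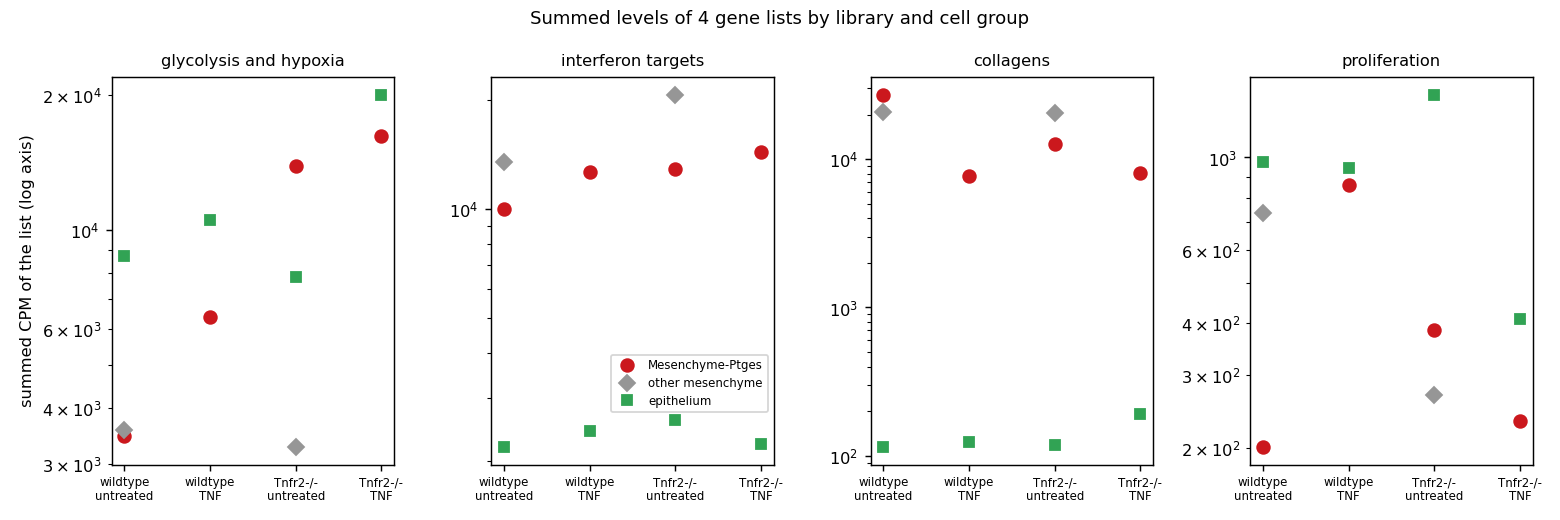
Summed CPM on log axes of 4 gene lists in the Mesenchyme-Ptges class (red circles), other mesenchyme (grey diamonds, untreated libraries) and epithelium (green squares) of each library. For glycolysis and hypoxia the class was at 3468, 6383, 13845 and 16202 CPM, and for proliferation at 201, 860, 384 and 232 CPM.

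Proliferation genes were lower in TNF-treated Tnfr2-/-. Of 17 tested (20 listed), 17 were lower, with a median of -1.91, and 17 of 17 with TMM factors (-1.80). Mki67, present in cycling cells, was at 11.7, 78.5, 19.2 and 22.6 CPM, and after thinning 37 of 300 wildtype cells (12.3%) and 3 of 121 Tnfr2-/- cells (2.48%) held it (26.3% and 4.92% before), against 17.4% and 5.72% of epithelial cells, which also cycle (36.0% and 14.3% before). Top2a, the topoisomerase of dividing cells, was at 29.2, 91, 38.4 and 36.7 CPM and Hist1h1b, a linker histone of S phase, at 5.84, 117, 15.6 and 6.08 CPM. The sum of the list was 201, 860, 384 and 232 CPM, so TNF-treated wildtype held the highest level of the class. Epithelium held 977, 941, 1415 and 409 CPM, also lowest in TNF-treated Tnfr2-/-.

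Interferon targets included a few lower genes. Of 26 tested (30 listed), 6 were lower in Tnfr2-/- with TNF, Isg15, Ifit3 and Ifitm1 among them, and 0 higher, with a median of -0.50, and 4 of 25 were lower with TMM factors and 4 of 26 without the cells holding epithelial RNA. Ifit3, an interferon-induced antiviral gene, was at 93.4, 98.3, 54 and 19.5 CPM (-2.28).

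Growth factor and Wnt genes showed single changes. Gdf15, a stress cytokine of the TGF-β family, was at 26.3, 11.6, 171 and 183 CPM and Igf1, insulin-like growth factor 1, at 1924, 219, 1108 and 494 CPM, both higher in TNF-treated Tnfr2-/- (3.87 and 1.17). Fgf2, Fgf7, Ereg and Angptl4 were lower, of 13 tested (22 listed). Ereg, a ligand of the epidermal growth factor receptor, was at 447, 796, 227 and 233 CPM. The secreted Wnt modulator Sfrp2 was at 161, 109, 598 and 718 CPM and the Wnt deacylase Notum at 8.76, 8.48, 8.41 and 36.9 CPM, both higher among 6 tested genes (19 listed). Of 14 genes of the bone morphogenetic protein pathway (20 listed), Bmp5 was higher and Fst and Id3 lower. Cck, which encodes the peptide hormone cholecystokinin, was at 625, 2260.3, 49.2 and 1250.1 CPM, with a log2 difference between genotypes of -0.85 with TNF. Its per-cell levels spread widely, with a median of 73.7 CPM in wildtype (0 to 7335) and 322 CPM in Tnfr2-/- (0 to 3291).

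Acute-phase and complement genes were mixed, with 5 of 15 tested (19 listed) higher and 2 lower. Lcn2, the iron-binding lipocalin 2, was at 1825, 1621, 973 and 3898 CPM (1.27) and Nos2, the inducible nitric oxide synthase, at 0, 16, 33.6 and 95.6 CPM (2.51). Saa1 passed over all class cells (3.68) and was at -0.11 without the cells holding epithelial RNA.

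Several of the largest genotype differences moved with that epithelial RNA. Of 12 epithelial genes, 7 were tested and 6 were higher in Tnfr2-/-, with a median of 3.25. Ly6d and the cornified envelope gene Sprr2a3 were among the 10 largest rises. Ly6d was at 2.92, 0.479, 0 and 139 CPM and Sprr2a3 at 11.7, 4.11, 2.4 and 327 CPM, with log2 differences of 6.56 and 6.01 that were at 1.32 and 0.71 without the 35 and 20 cells above 500 CPM of epithelial genes. Krt6a went from 5.28 to 0.33, and Clu (clusterin) from 4.61 to 2.53. Other rises kept their size without those cells, with Gbp2b at 6.21 and 6.38, Fxyd2 at 4.94 and 4.64, Prl2c3 at 4.64 and 4.10 and Ccl5 at 4.71 and 4.84. Gbp2b, a guanylate-binding protein, was at 0, 0, 25.2 and 72.9 CPM, at least 355-fold higher, Fxyd2, a subunit of the sodium pump, at 2.92, 1.57, 19.2 and 78 CPM, and Prl2c3, a prolactin family hormone, at 0, 0.821, 1.2 and 44.4 CPM. Of the 397 higher genes, 357 were still 2-fold higher without those cells and 111 had a higher level in epithelium than in the class.

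The largest falls included contractile, neuronal and immediate early genes. Apart from Xist, the TNF-treated Tnfr2-/- class had no UMI of Col25a1 (14.6, 35.8, 0 and 0 CPM, at least 56.9-fold lower), of the lectin receptor Clec4e (0, 34.8, 0 and 0 CPM, at least 55.4-fold lower) or of the growth cone gene Gap43 (5.84, 25.5, 0 and 0 CPM, at least 40.5-fold lower). Tagln, a smooth muscle actin-binding protein, was at a ratio of 0.0104 (0.00125 to 0.0376) and Crispld2, a secreted glycoprotein, at 0.0140 (0.00288 to 0.0411) of the wildtype level. Of smooth muscle and myofibroblast genes, Acta2, Tagln and Tpm2 were the 3 tested (9 listed) and were lower. The nuclear receptor Nr4a1 was at 73, 111, 30 and 3.98 CPM and Fibin, a secreted fin bud initiation factor, at 61.3, 59.9, 36 and 3.35 CPM.

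In the untreated cultures 727 genes were higher in Tnfr2-/- (10.7% of 6791) and 948 lower (14.0%), together 24.7%, against the 34 wildtype cells described above. The higher sets with and without TNF shared 180 genes, which is 45.3% of the TNF set and 24.8% of the untreated set. The lower sets shared 121, or 21.9% and 12.8%. Over cells at or below 10% mitochondrial UMIs 828 were higher and 964 lower without TNF, with 183 and 152 shared, and without mitochondrial genes in the totals 607 and 1246. Timp1, Tnc, Col3a1 and Col27a1 were lower and Mmp12, Gdf15, Sfrp2, Cxcl5 and Ndrg1 higher under both treatments. Il1rl1 was lower in untreated Tnfr2-/- (-2.67) and at -0.47 with TNF, and Mmp13 was higher in untreated Tnfr2-/- (3.56).

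TNF against untreated could be read in each genotype, with the untreated wildtype side resting on the 34 cells. In wildtype the class was 2.38% of mesenchyme without TNF and 99.3% with it, and in Tnfr2-/- 41.1% and 100%. A change within cells and a change in which cells carry the class therefore cannot be told apart. Of 5809 genes, 97 were higher with TNF in both genotypes (1.67%) and 81 lower in both (1.39%), together 3.06%. Over cells at or below 10% mitochondrial UMIs the shared counts were 87 and 78, and over all mesenchyme of each library 165 and 209. Wildtype alone gave 929 higher (13.4%) and 760 lower (11.0%) of 6917 (together 24.4%), and Tnfr2-/- alone 316 higher (5.08%) and 226 lower (3.63%) of 6220 (8.71%). Prostaglandin genes, Il11, Csf1, Csf3 and Il1rl1 were higher and type I and type III collagen, Igf1 and Igfbp5 were lower with TNF in both genotypes. Against the low-mitochondrial untreated wildtype cells, Il1rl1 did not reach 2-fold in wildtype. No such value is given for the prostaglandin genes. The split in Tnfr2-/- was 422 higher and 163 lower with TMM factors (72.1% higher against 58.3%) and 387 and 181 with median-of-ratios factors (68.1%). Without mitochondrial genes the wildtype split was 721 and 1060 (40.5% higher against 55.0%), and the median over all genes went from 0.13 to -0.05.

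**Figure D5:**
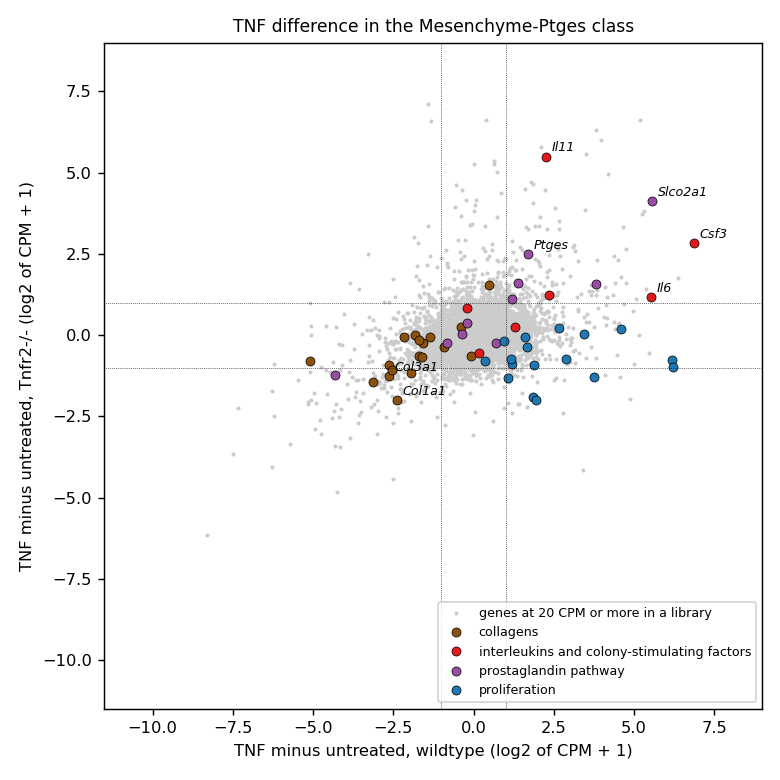
Each point is a gene, placed by TNF minus untreated in the Mesenchyme-Ptges class of wildtype (x axis) and of Tnfr2-/- (y axis), as log2 of (CPM + 1), with dotted lines at 2-fold. Ptges and Slco2a1 (purple) and Il11 and Csf3 (red) lie at the upper right, most collagens (brown) left of the line at -1 on the x axis and proliferation genes (blue) to the right near or below 0 on the y axis.

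Prostaglandin genes were higher with TNF in both genotypes, 4 of 7 tested in both (19 listed). Ptges (chromosome 2, 30889471 to 30929863, minus strand) was at 187, 608, 97.3 and 550 CPM, higher by 1.70 in wildtype and 2.49 in Tnfr2-/-. Ptgs2 (chromosome 1, 150100031 to 150108227, plus strand) was at 458, 1045, 821 and 1767 CPM (1.19 and 1.10). The transporter Slco2a1, which takes up prostaglandins, was at 0, 46.7, 1.2 and 37.5 CPM, at least 5.33-fold higher in wildtype and at a ratio of 31.2 (5.54 to 1241) in Tnfr2-/-, where the untreated class had 1 UMI. Abcc4, an efflux pump that can export prostaglandins, was at 17.5, 46.9, 13.2 and 41.9 CPM. The synthase, the cyclooxygenase before it and both transporters therefore stood higher in each TNF culture. Ptgs1, the constitutive cyclooxygenase, was at 365, 317, 216 and 280.0 CPM, and the receptor Ptger4, at 64.2, 2.26, 4.8 and 1.47 CPM, was lower with TNF in wildtype.

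Cytokines that act on granulocytes, macrophages and epithelium were higher with TNF. Il11 was at 73, 352, 4.8 and 259.7 CPM (2.25 and 5.49), Csf3, the granulocyte factor, at 0, 117, 22.8 and 168 CPM (at least 13.4-fold in wildtype, 2.83 in Tnfr2-/-), and Csf1 was higher by 2.36 and 1.23. These were 3 of 4 tested in both genotypes. Il6 was at least 5.19-fold higher in wildtype, and Lif was higher there by 1.28 and at 0.24 in Tnfr2-/-. Il1rl1 was higher by 1.86 and 4.06. Over the 7 low-mitochondrial cells of untreated wildtype it stood at 1435 CPM, and Ccl2 at 4828 CPM, nearer to the 2400 and 9927 CPM of TNF-treated wildtype. Against these 7 cells the Il1rl1 difference was under 2-fold. Ccl2 was higher with TNF in wildtype (2.02) and at 0.94 in Tnfr2-/-, just under the limit, and Ccl7 at 1.41 and 0.21. The eosinophil chemokine Ccl11, at 219, 10.5, 129.7 and 3.56 CPM, and Ccl8, at 1597, 297, 1024 and 464 CPM, were lower with TNF in both genotypes.

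Transcripts of type I and type III collagen were lower with TNF in both genotypes. Col1a1, the main chain of type I collagen, was at 2639, 507, 1638 and 406 CPM (-2.38 and -2.01) and Col1a2 at 4335, 1133, 2919.6 and 1306 CPM. With Col3a1, Col6a2 and Col6a3 they made 5 of 17 tested collagens (19 listed) that were lower in both genotypes. Singly, 14 of 18 were lower in wildtype (median -1.76) and 5 of 17 lower and 1 higher in Tnfr2-/- (median -0.63). Over the low-mitochondrial untreated wildtype cells the wildtype count was 11 of 17 lower and 1 higher (-1.23). The summed collagen level was 27182, 7677, 12584 and 8108 CPM. Of 19 tested matrix glycoproteins (26 listed), Postn, Fbln1, Lum and Has2 were lower in both, with periostin (Postn) at 1486, 317, 1152 and 277 CPM. Of 12 tested metalloproteinases and inhibitors, Mmp9, a gelatinase, was higher, at 17.5, 68.7, 15.6 and 84 CPM.

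Of the 10 largest shared rises, Penk, which encodes the opioid precursor proenkephalin, was at 73, 652, 18 and 129 CPM and Cemip, which depolymerises hyaluronan, at 14.6, 98.5, 24 and 282 CPM. Nppc, the precursor of C-type natriuretic peptide, was at 2.92, 53.8, 0 and 78.4 CPM, at least 21.8-fold higher in Tnfr2-/-. Tnip3, a partner of A20 induced by NF-κB, was at 8.76, 59.3, 7.21 and 50.7 CPM and Acod1, which makes itaconate, at 0, 26, 2.4 and 20.5 CPM. Upp1, a uridine phosphorylase, was at 8.76, 82.9, 2.4 and 21.4 CPM. Krt18 was at 23.4, 154, 18 and 183 CPM, and Crct1 at 0, 35.6, 3.6 and 453 CPM, which in Tnfr2-/- epithelium was at 83.2 and 287 CPM. Without cells holding epithelial RNA, TNF-treated Tnfr2-/- held 48.3 CPM of Krt18 and 440.4 CPM of Crct1. Slco2a1 and Csf3 completed the 10. Cd34, a surface sialomucin of crypt-base fibroblasts, was at 117, 333, 21.6 and 137 CPM, and Cck rose by 1.85 and 4.64.

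The largest shared fall was Igfbp5, at 1223, 2.87, 115 and 0.629 CPM, with a log2 difference of -8.30 in wildtype and a ratio of 0.00545 (0.00111 to 0.0164) in Tnfr2-/-. Over the 7 low-mitochondrial cells of untreated wildtype the Igfbp5 difference was -1.82, and that of Lama1 went from -3.84 to 0.51, so Lama1 was not lower in both there. Apoe, a lipid carrier, was at 791, 14.2, 377 and 36.3 CPM and Abi3bp, a matrix protein, at 172, 1.23, 99.7 and 5.03 CPM. The laminin chain Lama1 was at 152, 9.65, 38.4 and 3.35 CPM, the growth factor midkine (Mdk) at 163, 19.6, 157 and 18.2 CPM and angiotensinogen (Agt) at 35, 0.342, 31.2 and 2.93 CPM. Svep1, Itm2a, Edil3 and Ccl11 completed the list. Igf1 was lower, with log2 differences of -3.13 and -1.16. Of 24 interferon targets tested in both genotypes, Gbp2 was higher, at 26.3, 88.3, 24 and 67.5 CPM, and of 17 NF-κB genes Tnip3 was. Of 18 glycolysis and hypoxia genes 0 passed in both genotypes, with 6 of 18 higher in wildtype (median 0.91, and 2 of 18 with a median of 0.16 over the low-mitochondrial untreated cells) and 1 of 19 higher in Tnfr2-/- (0.21).

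Proliferation genes were mostly higher with TNF in wildtype, and a few were lower in Tnfr2-/-. With TNF 15 of 17 tested were higher in wildtype (median 1.89, and 16 of 17 with a median of 4.88 over the low-mitochondrial untreated cells) and in Tnfr2-/- 0 of 8 were higher and 3 lower (Cdk1, Tyms and Cenpf, median -0.95). The untreated wildtype class held 69 UMIs of the whole list, and its low-mitochondrial cells are part of it and no separate check. Other mesenchyme held 737 CPM of the list in untreated wildtype and 269 CPM in untreated Tnfr2-/-. In the class the list was at 201, 860, 384 and 232 CPM. The rise in wildtype is thus from the untreated class and not from all untreated mesenchyme. Cdk1, the mitotic kinase, was at 11.7, 44.6, 51.6 and 13 CPM. Whether the TNF differences of the genotypes differed from each other was not tested.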

How the data were processed

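Single-cell RNA was counted in 4 libraries, 1 for each genotype and treatment. The authors deposited a matrix of UMI counts (30360 genes, 6155 cells), which they made with Cell Ranger and monocle3, removing cells below 100 UMIs and doublets of epithelial and mesenchymal cells. The submitters' processing notes name Cell Ranger 5.0.0 and mm10. Classes came from the authors' Leiden clustering, and 35 cells had none. Deposited size factors (a score) and plotting coordinates were not used. From the deposited counts, UMIs were summed over the class per library and scaled to CPM in Python 3.11.15 (numpy 2.4.6, pandas 2.3.3, scipy 1.17.1). Positions came from GENCODE M21 (GRCm38) and promoters from RefSeq (GRCm38.p6). Promoter entries matched 6 of 7 class markers, 19 of 20 glycolysis and hypoxia genes and 25 of 30 interferon targets.

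With 1 library per group no test was made. Differences used a pseudocount of 1 CPM, a minimum of 20 CPM and a limit of 2-fold, and shared counts needed both pairs. The text names the 7 class markers, the 10 largest rises and falls of each comparison (without Gm and Rik names), members of 32 gene lists that passed, also within 1 untreated library alone, up to 4 further members with high levels in the TNF libraries, and fixed genes. Members and lists were chosen with earlier results of these data known. Thinning to 3000 UMIs left out 2, 4, 2 and 1 class cells. Doublets were scored with scrublet in scanpy 1.11.5 at an expected rate of 0.06, which marked 47 cells (0.764%), and none was removed. Alternatives (37 planned) used other pseudocounts, minimums, cell filters and factors from edgeR 4.0.16 (TMM) and DESeq2 1.42.0 (median of ratios) in R 4.3.3, for scaling only. Counting was tested on simulated sums with counting error only. Of unchanged genes, 202 of 6330 (3.19%) passed for TNF against untreated in wildtype. In Tnfr2-/- 15 of 5764 (0.26%) passed, and for the genotypes with TNF 0 of 5937 did.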

Additional observations from a re-analysis of the deposited data

Results flagged for a closer look

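In the 6 genes given here, the TNF difference in the class passed the size limit upward in 1 genotype and downward in the other. They are flagged examples, and a count over all genes is not given. Of 6917 genes in wildtype, 13.4% passed upward and 11.0% downward. In Tnfr2-/- 5.08% and 3.63% of 6220 did. The difference between the genotypes was not tested. The wildtype direction was the same over the 7 untreated cells of low mitochondrial share, but these are among the 34 cells and are no separate check. The values below are log2 TNF differences in wildtype and in Tnfr2-/-, followed by Tnfr2-/- minus wildtype. The cell cycle genes were Cenpf at 3.75 and -1.30 (-5.05), Cdk1 at 1.85 and -1.91 (-3.76) and Tyms, the thymidylate synthase, at 1.09 and -1.32 (-2.41). The contractile genes were Tagln at 3.40 and -4.14 (-7.54) and Acta2 at 2.78 and -2.39 (-5.17). Lgals4, an epithelial galectin, was at -1.85 and 3.01 (4.86), with 43.8, 11.4, 8.41 and 75 CPM in the class and 9.77 CPM in TNF-treated Tnfr2-/- without the cells holding epithelial RNA. The wildtype side of each value rests on the 34 untreated cells, which held 1 UMI of Cenpf, 4 of Cdk1, 1 of Tagln and 2 of Acta2. With so few UMIs, the 7 cells could not have reversed the upward direction of Cenpf, Cdk1, Tagln and Acta2.

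Markers of the class were also found in an epithelial class, which entered the text only within the epithelial sums. The 246 cells of the class Secretory-Reg4-Ang4, present in TNF-treated wildtype with a median of 1957.5 UMIs, held Mmp3 at 555 CPM, Grem1 at 487 CPM, Mmp10 at 471 CPM, Ccl2 at 447 CPM, Il1rl1 at 416 CPM, Mmp13 at 228 CPM and Ptges at 60.8 CPM. In cells of the class Secretory-Reg4-Spdef-Lyz1 of that library the same genes were at 7.44, 1.24, 4.34, 11.3, 2.01, 0.155 and 4.65 CPM. Whether RNA of the mesenchyme in the same culture takes part in these levels was not tested.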

How the results depend on the processing

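No paired analysis was possible because each group was 1 library. Every shared count depended on the limits. Main counts were 32 higher and 58 lower for the class against other mesenchyme, 397 and 552 for Tnfr2-/- against wildtype with TNF and 97 and 81 for TNF in both genotypes. Without a level minimum they were 198 and 426, 1080 and 1233, and 492 and 282, and with a minimum of 50 CPM 13 and 23, 250 and 258, and 39 and 45. A pseudocount of 10 CPM gave 16 and 31 for the class, 294 lower for genotype and 63 higher for TNF. Taken singly, Tnfr2-/- gave 327 and 558 for the class and 316 and 226 for TNF, and wildtype 479 and 690 and 929 and 760. The class had 62 and 114 with cells at or below 10% mitochondrial UMIs, 103 lower with cells of at least 10000 UMIs, 114 lower by per-cell means and 37 lower where Poisson intervals did not overlap. For TNF, all mesenchyme gave 165 and 209 and per-cell means 141 lower. The share of the class in untreated wildtype was 0.507% and 0.579% under the mitochondrial and UMI filters. The causes of these changes were not tested beyond what fewer genes or cells tested give by construction. None of the 10 largest genotype differences with TNF in either direction changed sign under the alternatives run, but other directions did, Saa1 without epithelial RNA among them. A value over both pairs is 0 where the pairs go opposite ways, which happened for Lgals3 by per-cell means, Ifitm1 against generic mesenchyme alone, and Lama1 and Grem1 (TNF) in low-mitochondrial cells. Of 152 list medians (at least 3 genes tested), 27 changed sign under 1 or more of 6 alternatives, 18 of 150 with low-mitochondrial cells. Among 71 medians of at least 0.5 in size, 4 did, for collagens, IGF-binding proteins and villus-top genes as given in the text and for Wnt genes between the untreated genotypes (-1.21 to 0.42). Among the values of single named genes, 864 planned values stayed within their interval and 115 moved, and 246 and 50 did so among alternatives added after the data were seen (single cultures or genotypes, low-mitochondrial cells, non-overlapping intervals and scaling without mitochondrial genes). Depth limits the untreated wildtype class most, where 3 counts stand for 8.76 CPM.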

Other observations

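Further gene groups were counted in the class. Of 5 tested IGF-binding proteins (6 listed), Igfbp3, Igfbp5 and Igfbp6 were above other mesenchyme in untreated wildtype, but over the 7 low-mitochondrial cells 1 was above and 2 below it, and in untreated Tnfr2-/- Igfbp5 was above and Igfbp3 and Igfbp4 below it. Of 13 tested AP-1 and immediate early genes (15 listed), Fosl1, Jund, Ier3 and Maff were above other mesenchyme in untreated Tnfr2-/-. With TNF, 2 of 14 were higher in Tnfr2-/- (Atf3 and Maff) and Fosb was lower. Of 10 tested TGF-β pathway genes (14 listed), Tgfbr3 was lower in Tnfr2-/- with TNF. Of 5 tested genes of villus-top fibroblasts (8 listed), 5 were lower with TNF in wildtype (Bmp4, Bmp5, Bmp7, Wnt5a and Nrg1, median -1.84), but over the 7 low-mitochondrial untreated cells 1 of 4 was higher and 1 lower (median 0.09). Of 6 in Tnfr2-/- F3 was higher (1.92) and the median was 0.26. Wnt5a, a noncanonical Wnt ligand, was at 739, 205, 204 and 132 CPM and Rspo3, an R-spondin that sustains crypt stem cells, at 78.8, 63, 143 and 54.9 CPM.

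Il33, which encodes the ligand of the receptor Il1rl1, was near 0 in the class at 0, 0.274, 0 and 0.21 CPM and at 3.95, 1.81, 1.11 and 0.603 CPM in epithelium. Tnf, which encodes TNF, was at 0, 1.3, 1.2 and 6.08 CPM in the class and at 12.5, 59.6, 40.9 and 71.7 CPM in epithelium.

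Sex-linked transcripts did not run together in the 2 compartments of a culture. Xist was at 1679, 549, 0 and 0 CPM in the class and 558, 683, 0.158 and 0.101 CPM in epithelium, and Ddx3y at 0, 0.205, 64.9 and 70 CPM and 1.61, 8.92, 0.0197 and 0.0251 CPM. The Tnfr2-/- class held Y-linked RNA, and the epithelium of the same libraries was near 0 for both genes. The labels do not give the sex of the donors, the study's methods state that mice of both sexes were used, and the source of these levels was not tested.

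Across 5935 genes at or above the level limit in the class, Pearson's r of log2 (CPM + 1) was 0.880 between the TNF-treated genotypes, 0.799 between the untreated genotypes, 0.791 between untreated and TNF-treated wildtype and 0.909 between untreated and TNF-treated Tnfr2-/-. The untreated class and other mesenchyme of the same culture had r of 0.878 in wildtype and 0.882 in Tnfr2-/-. Genes are not independent replicates, and the untreated wildtype sum is the shallowest. The 35 cells without a class held Mmp3 at 394 CPM in untreated wildtype and 2399 CPM in untreated Tnfr2-/-, and Il1rl1 at 0.953 and 5.66 CPM.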
